A study of Homo sapiens with 9 samples.

Results

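Cytochrome P450 genes encode heme monooxygenases, and 39 of them were followed here by symbol in the mRNA of a human liver cancer cell line and its knockouts of vault RNA genes. The 39 symbols were each matched to 1 Ensembl gene among the 60664 gene identifiers of the count table. They were sorted by the substrates they are known for into 14 xenobiotic, 9 fatty acid, 6 bile acid and 4 steroid P450s, 5 P450s of vitamin D and retinoic acid, and 1 P450 of unknown substrate. The cells were Huh-7, an established human hepatocellular carcinoma line, grown to about 80% confluency in complete medium with fetal bovine serum. The 3 lines were unedited Huh-7 (WT), Huh-7 lacking vtRNA1-1 (1-1 KO) and Huh-7 lacking vtRNA1-2 (1-2 KO), with 3 libraries each. Vault RNAs are short noncoding RNAs that were first found bound to the vault particle. The question was which mRNAs change when either vault RNA gene is removed.

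Both knockouts were made with CRISPR/Cas9, and each stands on a single line. WT and 1-1 KO cells came from another laboratory, and the 1-2 KO line was derived from a cell clone of the WT cells, so a difference between lines cannot be told apart from differences between clones or in culture history. The study calls the 3 libraries of a line biological replicates, and the labels do not say whether they came from separate cultures, so the p-values measure the spread between these libraries, each line being 1 line. In bulk RNA, fewer cells expressing a gene and less RNA of it per cell cannot be told apart.

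P450s of the endoplasmic reticulum receive electrons from P450 reductase and cytochrome b5, and those of mitochondria from ferredoxin and its reductase. In liver they oxidise drugs and other foreign compounds, open the classical and the acidic route from cholesterol to bile acids, hydroxylate fatty acids and eicosanoids, and activate or degrade vitamin D and retinoic acid. Liver tumour lines are known to keep only part of this repertoire.

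Each library held between 32384469 and 41782387 counted reads. The target genes came first: VTRNA1-1 had 1 count in WT replicate 1 and 0 counts in the other 8 libraries, and VTRNA1-2 had 0 counts in all 9, so these mRNA libraries do not check the knockouts. All 10 hepatocyte markers examined were above the floor in every line, where the floor means at most 3 counts in each library. Their summed level was 15100 to 16000 CPM (read counts scaled to library size) in WT, 31300 to 32200 CPM in 1-1 KO and 21300 to 23300 CPM in 1-2 KO. The higher sums lay mostly in ALB and AFP. Line means, in that order, were 2532, 9427 and 4739 CPM for ALB and 1759, 8167 and 7419 CPM for AFP. At an adjusted p under 0.05 in edgeR, 9 of the 10 markers were higher and 0 lower in 1-1 KO. In 1-2 KO 5 were higher, and the 3 lower were TTR (log2 fold change -0.64), TF (-0.22) and FGB (-0.24). Over all tested genes, the calls were 32.5% higher and 30.9% lower in 1-1 KO, and 28.2% and 26.2% in 1-2 KO. Summed CPM of 5 immune markers was 1.52 to 1.63, 3.38 to 3.62 and 2.62 to 3.18, with CD68 and HBB at the floor in all lines. Summed CPM of 5 endothelial markers was 7.42 to 8.04, 6.47 to 7.22 and 0.831 to 1.10, with TEK and EMCN at the floor in all lines. PECAM1 made up most of each sum, at means of 7.57, 6.67 and 0.839 CPM. CDH5 had 2, 2 and 1 counts in WT, 0 in each library of 1-1 KO and 5, 3 and 7 in 1-2 KO. Summed CPM of 5 stromal markers was 14.6 to 16.2, 17.9 to 19.0 and 23.2 to 24.4, and that of 5 cholangiocyte markers was 312 to 355, 482 to 496 and 324 to 430. KRT19 was the largest part of the cholangiocyte sum. KRT7 had 11, 19 and 11 counts in WT, 1 in each library of 1-1 KO and 3, 6 and 4 in 1-2 KO. In 1-1 KO the other 4 cholangiocyte markers were higher than in WT. The part of these shifts in the P450 results below was not tested.

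The sequences before the start sites of 4 P450 genes are shown as examples: CYP1A1 had the highest level, CYP2B6 was lower in both knockouts, CYP2U1 was at the floor of detection in WT, and CYP39A1 moved in opposite directions in the 2 knockouts. Each is the 250 bases before the RefSeq start site in GRCh38.p14, written 5′ to 3′ on the strand of the gene. Capitals mark GCGTG (the core bound by the aryl hydrocarbon receptor, AHR), TATAAA (the TATA box) and CCAAT (the CCAAT box), or the reverse complement of each; no overlap between the marked motifs occurred in these 4 windows. The windows lie at chr15:74725529-74725778 (minus strand, CYP1A1), chr19:40991032-40991281 (plus strand, CYP2B6), chr4:107931299-107931548 (plus strand, CYP2U1) and chr6:46652819-46653068 (minus strand, CYP39A1).
CYP1A1: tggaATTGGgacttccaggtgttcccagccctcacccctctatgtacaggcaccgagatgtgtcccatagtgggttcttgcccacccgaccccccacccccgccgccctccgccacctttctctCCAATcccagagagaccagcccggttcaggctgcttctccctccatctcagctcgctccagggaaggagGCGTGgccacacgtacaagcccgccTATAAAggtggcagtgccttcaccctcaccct
CYP2B6: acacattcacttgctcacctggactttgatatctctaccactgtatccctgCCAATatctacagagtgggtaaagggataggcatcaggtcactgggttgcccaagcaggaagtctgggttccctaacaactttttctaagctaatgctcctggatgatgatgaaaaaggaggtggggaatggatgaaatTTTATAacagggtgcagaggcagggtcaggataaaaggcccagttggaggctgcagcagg
CYP2U1: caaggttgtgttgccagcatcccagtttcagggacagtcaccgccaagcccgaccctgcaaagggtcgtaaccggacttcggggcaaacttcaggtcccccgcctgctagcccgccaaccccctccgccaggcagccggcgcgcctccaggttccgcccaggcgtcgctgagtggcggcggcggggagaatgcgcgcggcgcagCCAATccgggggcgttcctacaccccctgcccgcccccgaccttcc
CYP39A1: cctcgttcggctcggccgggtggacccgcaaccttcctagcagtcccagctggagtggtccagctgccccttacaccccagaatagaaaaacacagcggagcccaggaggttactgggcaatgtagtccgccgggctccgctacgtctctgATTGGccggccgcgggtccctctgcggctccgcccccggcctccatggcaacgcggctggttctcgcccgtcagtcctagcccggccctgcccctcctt

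The CYP1A1 window held 1 AHR core beginning 57 bases before the start and 1 TATA box beginning 32 bases before it. The CYP2B6 window held 0 CpG and 1 TATA motif, on the opposite strand, 60 bases before the start. The windows of CYP2U1 and CYP39A1 held 25 and 21 CpG and neither a TATA box nor an AHR core. Of the 39 P450 genes, 28 had a RefSeq promoter entry. A TATA box was found in 9 of these 28, against 10.7% of all 35116 promoters of the same length, an AHR core in 5 of 28 against 32.2%, and a CCAAT box in 14 of 28 against 32%. The median number of CpG was 4.5 in the 28 windows and 11.0 over all promoters. A match describes letters in the window and says nothing of binding.

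Expression was concentrated in 2 genes. Levels of different genes are compared as TPM, read counts divided by exon length and scaled to a common total. CYP1A1, which oxidises aromatic hydrocarbons and is the classical target of AHR, stood at 127.2 ± 3.81 TPM in WT, 159.3 ± 2.47 TPM in 1-1 KO and 111.9 ± 6.25 TPM in 1-2 KO (mean ± SD, n = 3, as for all levels below). CYP26B1, which clears retinoic acid, followed at 42.5 ± 1.96, 52.5 ± 2.31 and 38.8 ± 0.720 TPM. Together they made up 65.9 ± 0.891%, 64.9 ± 0.789% and 67.3 ± 1.16% of the summed TPM of the 39 genes, and the SDs of both knockouts overlapped that of WT. The sum itself was 257.6 ± 6.58 TPM in WT, 326.4 ± 4.09 TPM in 1-1 KO and 223.9 ± 6.25 TPM in 1-2 KO. The oxysterol 7α-hydroxylase CYP39A1 (18.0 ± 1.13 TPM) and the sterol 27-hydroxylase CYP27A1 (17.5 ± 0.743 TPM) came next in WT, and their ranges overlapped. CYP2R1, CYP20A1, CYP2J2 and CYP2B6 then stood between 8.95 and 7.57 TPM with each overlapping its neighbour in the order. A mean of at least 1 TPM was reached by 15 genes in WT, 16 in 1-1 KO and 17 in 1-2 KO. The order of the leading genes differed in 1-2 KO, where CYP39A1 held rank 5 at 8.63 ± 0.518 TPM and CYP7B1 entered at rank 9 with 2.78 ± 0.0970 TPM.

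Of the 39 genes, 7 were at the floor in all lines: the fatty acid hydroxylases CYP4A11, CYP4F2 and CYP4F11, their relative CYP4X1, the bile acid enzymes CYP7A1 and CYP8B1, and the steroid 21-hydroxylase CYP21A2. CYP4A11 and CYP4X1 had 0 counts in all 9 libraries. CYP7A1, the rate-limiting enzyme of the classical bile acid route, had 0 counts in WT and 1-2 KO and 2 counts at most in 1-1 KO, and CYP8B1, the sterol 12α-hydroxylase that sets cholic acid output, had 2 counts at most in any library. The 3-count floor itself corresponds to between 0.0709 and 0.0951 CPM, so a lower level was not detectable at this depth. By line, 14 genes were at the floor in WT, 10 in 1-1 KO and 11 in 1-2 KO. A further 9 genes exceeded the floor somewhere but had too few reads to be tested: CYP1A2, CYP2C8, CYP2C19, CYP2E1, CYP3A4, CYP46A1, CYP17A1, CYP24A1 and CYP26A1. At this floor, 0 of 14 xenobiotic, 4 of 9 fatty acid, 2 of 6 bile acid and 1 of 4 steroid P450s were silent in every line. The split depends on the floor chosen, because the 5 untested xenobiotic genes had at most 9 counts in any library.

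The other 23 genes entered the quasi-likelihood test of edgeR among 17207 genes, and a call is a Benjamini-Hochberg adjusted p under 0.05. Against WT, 19 of the 23 were called in 1-1 KO (15 higher, 4 lower) and 18 in 1-2 KO (6 higher, 12 lower). These are 82.6% and 78.3% of the 23. In 1-1 KO 63.4% of all tested genes were called, 32.5% higher and 30.9% lower, and in 1-2 KO 54.4%, 28.2% higher and 26.2% lower. The median log2 fold change of the 23 genes was 0.41 in 1-1 KO and -0.20 in 1-2 KO, beside 0.01 and 0.02 over all tested genes. Compared directly, 1-2 KO differed from 1-1 KO in 17 of the 23 genes (73.9%; 2 higher, 15 lower, median -0.53), against a background of 65.3%, 33.1% higher and 32.2% lower, with a median of 0.01 over all tested genes. Both comparisons with WT share the same 3 WT libraries. CYP2U1, CYP2W1, CYP11A1 and CYP2D6 had 0 WT libraries at the filter's cutoff of 0.247 CPM and entered only through the knockout lines, so a difference was built into their entry and their p-values support nothing on their own. Between the knockouts the same holds for CYP2U1, which entered only through 1-2 KO, and for CYP3A7, which had 0 libraries of 1-2 KO at the cutoff. Apart from the 4 genes with 0 WT libraries there, 19 genes were tested. Of these, 11 were higher and 4 lower in 1-1 KO, and 2 were higher and 12 lower in 1-2 KO. The medians of the 23 genes against WT include those 4 genes. All 4 lay above the median in each knockout, so both medians are higher than they would be without them. In 1-1 KO the 4 lower calls fell to 2 under DESeq2 and to 2 with scaling by library size alone.

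**Figure D1:**
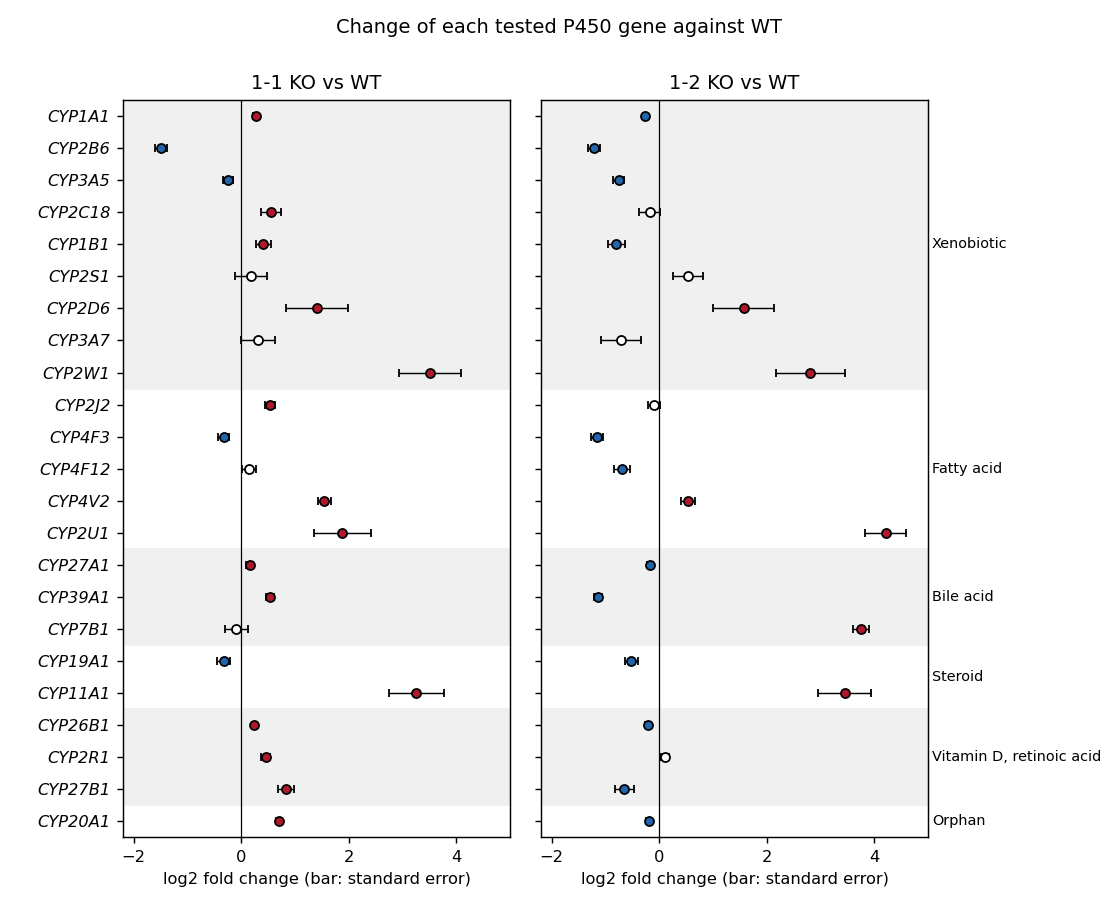
Log2 fold change with its standard error for the 23 tested P450 genes in 1-1 KO (left) and 1-2 KO (right) against WT; red marks genes called higher, blue genes called lower and white genes not called. In 1-1 KO 15 genes were called higher, and in 1-2 KO 12 genes were called lower.

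Xenobiotic P450s, the CYP1 to CYP3 enzymes of drug and pollutant oxidation, were mixed: of 9 tested, 5 were higher and 2 lower in 1-1 KO, and 2 were higher and 4 lower in 1-2 KO. The higher calls in both knockouts include CYP2W1 and CYP2D6, which entered the test through the knockout lines. The shares over all tested genes were 32.5% higher and 30.9% lower in 1-1 KO, and 28.2% and 26.2% in 1-2 KO. CYP1A1 (ENSG00000140465, chromosome 15, 74719542-74725536, GRCh38) had 118, 113 and 109 CPM in WT, 134, 134 and 139 CPM in 1-1 KO and 98.8, 88.1 and 96.0 CPM in 1-2 KO. The 3 lines did not overlap, with a log2 fold change of 0.27 (SE 0.04, adjusted p = 0.00011) in 1-1 KO and -0.26 (SE 0.04, adjusted p = 0.000172) in 1-2 KO. CYP1B1, a relative of CYP1A1 that also hydroxylates oestrogens, had 3.02, 3.01 and 2.47 CPM in WT, 3.43, 4.60 and 3.36 CPM in 1-1 KO and 1.5, 1.66 and 1.75 CPM in 1-2 KO. It was lower in 1-2 KO (log2 fold change -0.80, SE 0.16, adjusted p = 0.000571) without overlap. In 1-1 KO it was higher by 0.41 (SE 0.14, adjusted p = 0.0192), a call lost without WT replicate 3 (0.33, adjusted p = 0.069), without 1-1 KO replicate 2 (0.25, adjusted p = 0.121) and under DESeq2 (adjusted p = 0.0721).

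CYP2B6, an oxidant of bupropion and cyclophosphamide that is induced through the receptors NR1I2 and NR1I3, was lower in both knockouts. CYP2B6 (ENSG00000197408, chromosome 19, 40991282-41018398) had 7.31, 7.17 and 7.92 CPM in WT, 2.62, 2.94 and 2.40 CPM in 1-1 KO and 2.87, 3.09 and 3.69 CPM in 1-2 KO. All 6 knockout libraries lay below all WT libraries, 2.81-fold lower in 1-1 KO (log2 fold change -1.49, SE 0.11, adjusted p = 5.35e-08) and 2.32-fold lower in 1-2 KO (-1.21, SE 0.11, adjusted p = 4.95e-07). Between the knockouts the difference of 0.28 missed the threshold (SE 0.12, adjusted p = 0.0621), and passed it without 1-1 KO replicate 2 (0.35, adjusted p = 0.0387) or 1-2 KO replicate 1 (0.35, adjusted p = 0.0265). CYP2B6 shares 22.9% of its 31-base words with other genes, mostly with the pseudogene CYP2B7P (18.9%), and how the counting treated reads that match several genes is not stated.

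In the CYP3A cluster, CYP3A5, an oxidant of many drugs, had 9.10, 9.01 and 6.97 CPM in WT, 7.37, 7.20 and 6.64 CPM in 1-1 KO and 5.01, 4.77 and 5.17 CPM in 1-2 KO. CYP3A5 was lower in 1-2 KO, below every other library (log2 fold change -0.75, SE 0.10, adjusted p = 2.72e-05). In 1-1 KO the value of -0.25 (SE 0.10, adjusted p = 0.0447) came from overlapping libraries and lost its call without WT replicate 1 (-0.18), WT replicate 2 (-0.19) or any 1-1 KO library (-0.28, -0.26 and -0.20), and under DESeq2 (adjusted p = 0.0765). CYP3A7, the fetal form, had 12, 16 and 6 counts in WT, 19, 16 and 13 in 1-1 KO and 7, 8 and 8 in 1-2 KO. It was called only between the knockouts (-1.02, SE 0.34, adjusted p = 0.0178), and that call was lost without 1-1 KO replicate 1 (-0.90, adjusted p = 0.0683), without 1-2 KO replicate 1 (-0.94, adjusted p = 0.0562) and under DESeq2 (adjusted p = 0.127). Against WT in 1-2 KO, CYP3A7 stood at -0.71 (adjusted p = 0.117), which passed the threshold without WT replicate 3 (-0.95, adjusted p = 0.0448). CYP3A7 had 0 libraries of 1-2 KO at the filter's cutoff of 0.247 CPM and entered through the other lines. A lower level in 1-2 KO was thus built into its entry, and these p-values support nothing on their own. CYP3A7 shares 42.7% of its 31-base words with other genes, mostly with the readthrough gene CYP3A7-CYP3A51P, which overlaps 1506 of its exon bases on the same strand and had 0 to 3 counts per library. CYP3A4, the main drug-metabolising P450 of adult liver, had 9, 2 and 3 counts in WT, 3, 4 and 5 in 1-1 KO and 2, 2 and 3 in 1-2 KO, and its lines overlapped.

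The remaining xenobiotic genes were low. CYP2W1, known from fetal and tumour tissue, had 1, 2 and 0 counts in WT, 16, 12 and 15 counts in 1-1 KO and 12, 6 and 8 counts in 1-2 KO. Its ratio to WT was 12.6 in 1-1 KO (95% exact counting interval 4.02 to 63.3, adjusted p = 0.000108) and 7.73 in 1-2 KO (2.37 to 39.9, adjusted p = 0.002), where the intervals of this and later ratios cover counting error only. Without WT replicate 2 the fitted log2 fold change of CYP2W1 moved from 3.51 to 4.35 in 1-1 KO and from 2.82 to 3.65 in 1-2 KO. CYP2W1 had 0 WT libraries at the filter's cutoff, so a rise was built into its entry. Its p-values support nothing on their own. CYP2D6, which oxidises codeine and many antidepressants, had 4, 4 and 2 counts in WT, 5, 15 and 11 in 1-1 KO and 7, 9 and 18 in 1-2 KO. CYP2D6, which entered the test through the knockout lines, was called higher in both (1.41, SE 0.58, adjusted p = 0.0472, and 1.57, SE 0.57, adjusted p = 0.0314), and 63.1% of its 31-base words occur in other genes, chiefly CYP2D7. These calls failed under DESeq2 (adjusted p = 0.116 and 0.0819) and without any 1 WT library (1.25 to 1.54 and 1.38 to 1.70). That in 1-1 KO also failed without its replicate 2 (1.05) or 3 (1.36), and that in 1-2 KO without its replicate 3 (1.07).

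CYP2C18, a minor member of the CYP2C cluster, had 1.33, 1.39 and 0.792 CPM in WT, 1.63, 1.90 and 1.72 CPM in 1-1 KO and 1.09, 1.10 and 0.948 CPM in 1-2 KO. It was higher in 1-1 KO (0.56, SE 0.18, adjusted p = 0.0167), a call lost without WT replicate 3 (0.36, adjusted p = 0.0632), without 1-1 KO replicate 2 (0.50, adjusted p = 0.0608) and under DESeq2 (adjusted p = 0.0811). It shares 40.6% of its 31-base words with other genes, nearly all with a gene that overlaps 931 of its exon bases on the same strand and had 0 counts. CYP2S1, an extrahepatic P450 with 10 to 26 counts per library, was not called in any comparison. CYP2E1, the ethanol-oxidising P450, was too low to test, with 5, 6 and 6 counts in WT, 0, 1 and 1 in 1-1 KO and 8, 7 and 8 in 1-2 KO. Its 1-1 KO libraries lay below all others, with WT 9.70 times 1-1 KO (2.30 to 86.6) and 1-2 KO 11.7 times 1-1 KO (2.89 to 102). CYP2C19, the S-mephenytoin hydroxylase, had 1, 5 and 0 counts in WT, 1, 5 and 5 in 1-1 KO and 0, 0 and 1 in 1-2 KO. Its lines overlapped, and 1-1 KO was 10.8 times 1-2 KO (1.57 to 465). CYP1A2, which oxidises caffeine, and CYP2C8, which oxidises paclitaxel, had 0 to 4 and 2 to 9 counts, and their lines overlapped.

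Fatty acid P450s divided by gene: of 5 tested, 3 were higher and 1 lower in 1-1 KO, and 2 were higher and 2 lower in 1-2 KO. The higher calls in both knockouts include CYP2U1, which entered the test only through 1-2 KO. All tested genes together gave 32.5% higher and 30.9% lower in 1-1 KO, and 28.2% and 26.2% in 1-2 KO. CYP4V2, the fatty acid ω-hydroxylase whose loss causes Bietti crystalline dystrophy, lies on chromosome 4 (ENSG00000145476, 186191567-186213463). It had 2.86, 2.13 and 2.54 CPM in WT, 6.52, 7.59 and 7.92 CPM in 1-1 KO and 3.63, 3.74 and 3.54 CPM in 1-2 KO. The 3 lines did not overlap, and CYP4V2 was 2.92-fold higher in 1-1 KO (log2 fold change 1.54, SE 0.12, adjusted p = 5.14e-08) and 1.45-fold higher in 1-2 KO (0.53, SE 0.13, adjusted p = 0.00249). CYP2J2, an arachidonic acid epoxygenase, had 6.16, 6.99 and 6.09 CPM in WT, 10.5, 8.14 and 9.27 CPM in 1-1 KO and 6.34, 5.93 and 5.71 CPM in 1-2 KO. It was higher in 1-1 KO without overlap (0.54, SE 0.10, adjusted p = 0.00031), while 1-2 KO overlapped WT (-0.10, SE 0.10, adjusted p = 0.451).

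CYP2U1, a long-chain fatty acid hydroxylase, had the largest ratio to WT among the tested genes, from a very low base. CYP2U1 (ENSG00000155016, chromosome 4, 107931549-107953461) had 1, 3 and 1 counts in WT, 9, 5 and 8 in 1-1 KO and 40, 36 and 35 in 1-2 KO. Its ratio to WT was 19.8 in 1-2 KO (8.24 to 62.2, adjusted p = 3.84e-07) and 3.85 in 1-1 KO (1.42 to 13, adjusted p = 0.00665). The 3 lines did not overlap, and 1-2 KO was 5.14-fold above 1-1 KO (log2 fold change 2.34, SE 0.28, adjusted p = 4.05e-06). Only the 1-2 KO libraries of CYP2U1 reached the filter's cutoff, so a difference of 1-2 KO from both other lines was built into its entry. The p-values of CYP2U1 in 1-2 KO support nothing on their own. Without WT replicate 2 the fitted log2 fold change of CYP2U1 moved from 4.22 to 4.87 in 1-2 KO and from 1.88 to 2.53 in 1-1 KO. Under DESeq2 fitted to WT and 1-1 KO alone the smaller change missed the threshold (adjusted p = 0.121). The antisense gene CYP2U1-AS1 overlaps 163 exon bases of it and had 1 to 5 counts per library.

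The fatty acid hydroxylases CYP4F3, which also inactivates leukotriene B4, and CYP4F12 sit side by side on chromosome 19. CYP4F3 had 5.13, 4.88 and 4.60 CPM in WT, 4.07, 4.04 and 3.55 CPM in 1-1 KO and 2.18, 2.16 and 2.22 CPM in 1-2 KO. It was 2.22-fold lower in 1-2 KO (log2 fold change -1.16, SE 0.10, adjusted p = 3.98e-07) and lower in 1-1 KO (-0.33, SE 0.10, adjusted p = 0.00918; under DESeq2 adjusted p = 0.051). CYP4F12 had 3.90, 3.23 and 3.71 CPM in WT, 4.18, 4.30 and 3.46 CPM in 1-1 KO and 1.85, 2.31 and 2.54 CPM in 1-2 KO. It was 1.61-fold lower in 1-2 KO (-0.69, SE 0.14, adjusted p = 0.000821), and 1-1 KO overlapped WT (0.14, SE 0.13, adjusted p = 0.366). CYP4F3 shares 21.0% of its 31-base words with other genes, 13.6% with CYP4F2, which was itself at the floor.

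Of 3 bile acid and oxysterol P450s tested, 2 were higher and 0 lower in 1-1 KO, and 1 was higher and 2 were lower in 1-2 KO. Among all tested genes 32.5% were higher and 30.9% lower in 1-1 KO, and 28.2% and 26.2% in 1-2 KO. CYP7B1, the oxysterol 7α-hydroxylase of the acidic bile acid route, lies on chromosome 8 (ENSG00000172817, 64587763-64798737). It had 0.427, 0.373 and 0.349 CPM in WT, 0.378, 0.365 and 0.343 CPM in 1-1 KO and 5.03, 5.37 and 5.34 CPM in 1-2 KO. CYP7B1 was 13.7-fold higher in 1-2 KO than in WT (log2 fold change 3.76, SE 0.14, adjusted p = 4.78e-11) and 14.5-fold higher than in 1-1 KO (3.85, SE 0.14, adjusted p = 1.85e-11). WT and 1-1 KO overlapped, with a difference of -0.09 (SE 0.22, adjusted p = 0.809).

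CYP39A1, which 7α-hydroxylates 24-hydroxycholesterol, went the other way in 1-2 KO. CYP39A1 (ENSG00000146233, chromosome 6, 46549580-46652830) had 15.1, 15.6 and 13.8 CPM in WT, 22.1, 22.4 and 20.2 CPM in 1-1 KO and 6.24, 6.96 and 6.99 CPM in 1-2 KO. The lines did not overlap, and CYP39A1 was 1.46-fold higher in 1-1 KO (0.54, SE 0.07, adjusted p = 1.11e-05) and 2.20-fold lower in 1-2 KO (-1.14, SE 0.08, adjusted p = 1.77e-08). CYP27A1, which opens the acidic route by 27-hydroxylation of cholesterol, had 13.3, 13.8 and 14.2 CPM in WT, 15.3, 15.8 and 14.8 CPM in 1-1 KO and 12.3, 11.9 and 12.4 CPM in 1-2 KO. Its lines did not overlap, but the changes were small (0.16, SE 0.06, adjusted p = 0.0334, and -0.17, SE 0.06, adjusted p = 0.0281). Under DESeq2 both were lost (adjusted p = 0.165 and 0.0754). The call in 1-1 KO was lost without WT replicate 1 (0.13) or 2 (0.16) and without 1-1 KO replicate 1 (0.16) or 2 (0.13), and that in 1-2 KO without WT replicate 2 (-0.17) or 3 (-0.17) and without 1-2 KO replicate 2 (-0.15). CYP46A1, the 24-hydroxylase of brain cholesterol, had 0 to 4 counts in any library.

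Of 2 steroid P450s tested, 1 was higher and 1 lower in each knockout. The higher gene, CYP11A1, entered the test through the knockout lines. The shares over all tested genes were 32.5% higher and 30.9% lower in 1-1 KO, and 28.2% and 26.2% in 1-2 KO. CYP11A1, the mitochondrial side-chain cleavage enzyme that makes pregnenolone, rose from the floor in both knockouts. CYP11A1 had 2, 3 and 0 counts in WT, 22, 18 and 18 in 1-1 KO and 18, 19 and 28 in 1-2 KO. Its ratio to WT was 10.2 in 1-1 KO (4.11 to 32.5, adjusted p = 6.54e-05) and 11.6 in 1-2 KO (4.72 to 36.9, adjusted p = 4.06e-05), with no overlap with WT. Without WT replicate 2 the fitted log2 fold change of CYP11A1 moved from 3.26 to 3.91 in 1-1 KO and from 3.45 to 4.11 in 1-2 KO. CYP11A1 had 0 WT libraries at the filter's cutoff, so a rise was built into its entry. Its p-values against WT support nothing on their own. The knockouts overlapped each other (0.19, SE 0.30, adjusted p = 0.592). A noncoding gene on the opposite strand overlaps 647 exon bases of CYP11A1 and had 0 to 6 counts per library. CYP19A1, the aromatase that makes oestrogens, had 3.57, 3.31 and 3.65 CPM in WT, 3.24, 2.58 and 2.55 CPM in 1-1 KO and 2.63, 2.41 and 2.30 CPM in 1-2 KO. It was lower in 1-2 KO (-0.52, SE 0.12, adjusted p = 0.00271).

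In 1-1 KO CYP19A1 also lay below WT in each library (-0.33, SE 0.12, adjusted p = 0.0292), a call lost without WT replicate 1 (-0.32) or 3 (-0.30), without 1-1 KO replicate 2 (-0.27) or 3 (-0.27), and under DESeq2 (adjusted p = 0.101). CYP17A1, the 17α-hydroxylase and 17,20-lyase, was too low to test, with 2, 2 and 3 counts in WT, 10, 9 and 6 in 1-1 KO and 0 in all 3 libraries of 1-2 KO. It was 3.13 times WT in 1-1 KO (1.32 to 8.57) and, counting the 1-2 KO libraries at the floor of 3 counts each, at least 2.72-fold lower in 1-2 KO than in 1-1 KO. Its exons overlap 1417 bases of WBP1L on the opposite strand, which had 1470 to 2385 counts per library, and strand use in the counting is not stated.

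P450s of vitamin D and retinoic acid were higher in 1-1 KO in 3 of 3 tested and lower in 1-2 KO in 2 of 3. Among all tested genes 32.5% were called higher in 1-1 KO and 26.2% lower in 1-2 KO. CYP27B1, the renal 1α-hydroxylase that activates vitamin D, had 1.28, 1.39 and 1.68 CPM in WT, 2.60, 2.70 and 2.38 CPM in 1-1 KO and 0.831, 1.10 and 0.824 CPM in 1-2 KO. The lines did not overlap, and CYP27B1 was 1.77-fold higher in 1-1 KO (0.83, SE 0.15, adjusted p = 0.000235) and 1.58-fold lower in 1-2 KO (-0.65, SE 0.17, adjusted p = 0.00604; adjusted p = 0.087 under DESeq2 fitted to these 2 lines). Its exons overlap 107 bases of METTL1 on the same strand, a gene of 1823 to 2335 counts per library whose log2 fold changes were -0.20 and -0.28. CYP2R1, the hepatic 25-hydroxylase, had 11.0, 11.1 and 9.89 CPM in WT, 13.4, 14.9 and 15.4 CPM in 1-1 KO and 12.1, 11.6 and 10.7 CPM in 1-2 KO. It was higher in 1-1 KO without overlap (0.45, SE 0.08, adjusted p = 0.000129), and 1-2 KO overlapped WT (0.11, SE 0.08, adjusted p = 0.264).

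CYP26B1 had 57.7, 52.3 and 53.2 CPM in WT, 64.5, 66.9 and 62.2 CPM in 1-1 KO and 47.1, 45.8 and 48.3 CPM in 1-2 KO. Its 3 lines did not overlap (0.25, SE 0.05, adjusted p = 0.000324, and -0.21, SE 0.05, adjusted p = 0.00161). CYP24A1, which inactivates vitamin D and is a target of its receptor, was too low to test, with 2, 2 and 0 counts in WT, 1, 1 and 2 in 1-1 KO and 8, 15 and 17 in 1-2 KO. All 3 libraries of 1-2 KO lay above the other 6, at 8.92 times WT (3.22 to 34.3) and 10.2 times 1-1 KO (3.68 to 39.2). CYP26A1, the other main retinoic acid hydroxylase, had 2 to 7 counts in every library. CYP20A1 (ENSG00000119004, chromosome 2, 203238977-203306026), whose substrate is unknown, had 23.1, 24.5 and 22.4 CPM in WT, 39.2, 36.9 and 37.5 CPM in 1-1 KO and 20.6, 20.8 and 19.8 CPM in 1-2 KO. It was 1.62-fold higher in 1-1 KO (0.70, SE 0.05, adjusted p = 3.16e-08) and 1.15-fold lower in 1-2 KO (-0.20, SE 0.05, adjusted p = 0.00568), with no overlap.

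**Figure D2:**
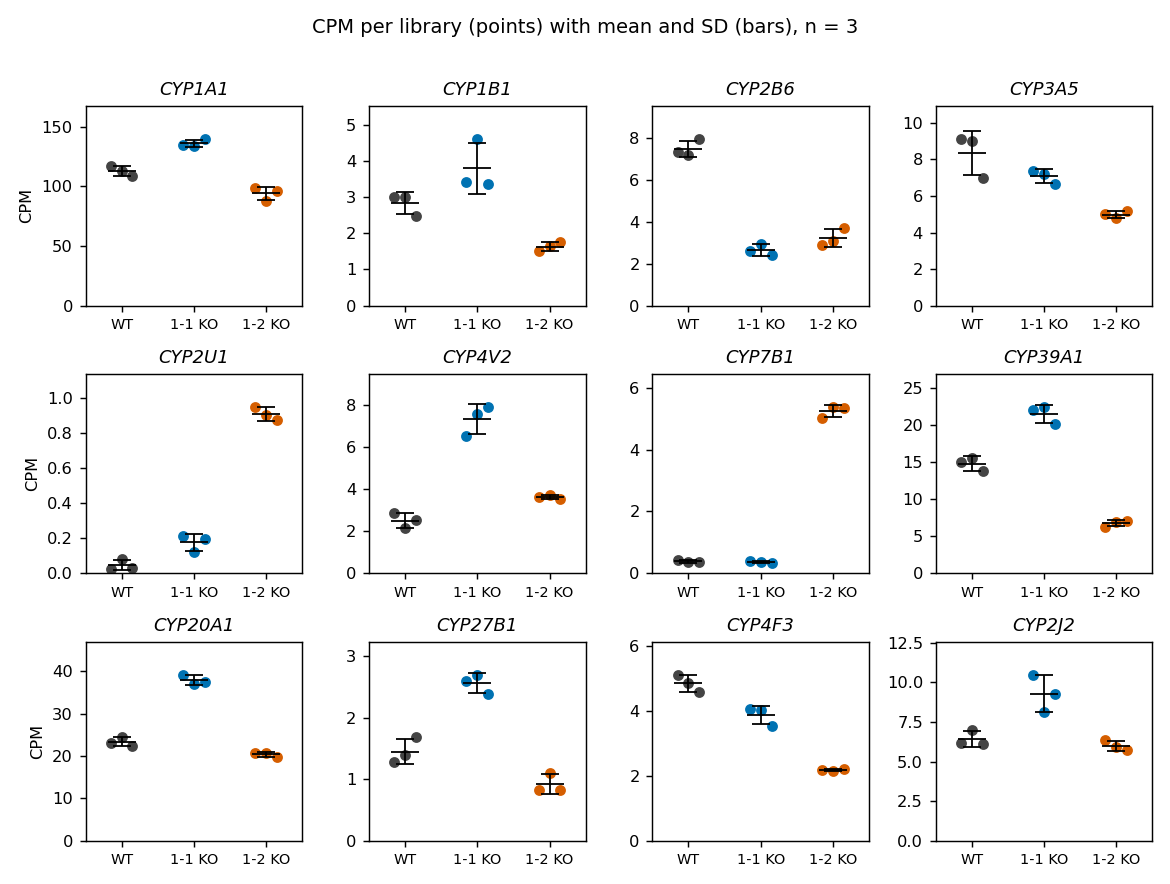
CPM of 12 P450 genes in each library (points) with the mean and SD of each line (bars, n = 3); each panel has its own linear axis from 0. CYP7B1 stood at 5.03 to 5.37 CPM in 1-2 KO and below 0.43 CPM in the other 6 libraries, and CYP2B6 was the gene in which both knockouts lay furthest below WT.

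Compared directly with 1-1 KO, 1-2 KO was lower in 5 of 9 xenobiotic, 4 of 5 fatty acid, 2 of 3 bile acid and 3 of 3 vitamin P450s and in CYP20A1, and higher in CYP2U1 and CYP7B1. In the same comparison 33.1% of all tested genes were called higher and 32.2% lower. For CYP2U1, and for CYP3A7 among the lower xenobiotic genes, a difference was built into the entry to the test. The largest falls were in CYP39A1, 3.20-fold (log2 fold change -1.68, SE 0.07, adjusted p = 1.36e-10), CYP27B1, 2.78-fold (-1.48, SE 0.16, adjusted p = 1.38e-06), and CYP1B1, 2.32-fold (-1.22, SE 0.15, adjusted p = 5.71e-06). CYP4V2 was higher than WT in both knockouts and 2.02-fold lower in 1-2 KO than in 1-1 KO (-1.01, SE 0.11, adjusted p = 1.82e-06). The steroid genes CYP11A1 and CYP19A1 were not called between the knockouts.

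Some P450 genes moved beside their chromosomal neighbours. The median log2 fold change of the 50 nearest tested genes in 1-1 KO was 0.75 around CYP4V2, 0.51 around CYP20A1, 0.48 around CYP2W1 and 0.40 around CYP2U1, and -0.27 around CYP3A5. With that median subtracted, CYP4V2 stood at 0.79 (adjusted p = 5.64e-05), CYP20A1 at 0.19 (adjusted p = 0.00522) and CYP2U1 at 1.49 (adjusted p = 0.0315). CYP3A5 was then at 0.03 and not called (adjusted p = 0.842). CYP1A1, whose neighbours had a median of -0.28, rose to 0.55 (adjusted p = 1.17e-07), and CYP4F3, whose neighbours had 0.27, moved to -0.60 (adjusted p = 0.000117). In 1-2 KO the neighbour medians lay between -0.26, around CYP39A1, and 0.21, around CYP2W1. CYP7B1, with neighbours at -0.14, stood at 3.89 after subtraction (adjusted p = 3.64e-11) and CYP39A1 at -0.88 (adjusted p = 3.39e-07). DNA copy number was not analysed here.

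**Figure D3:**
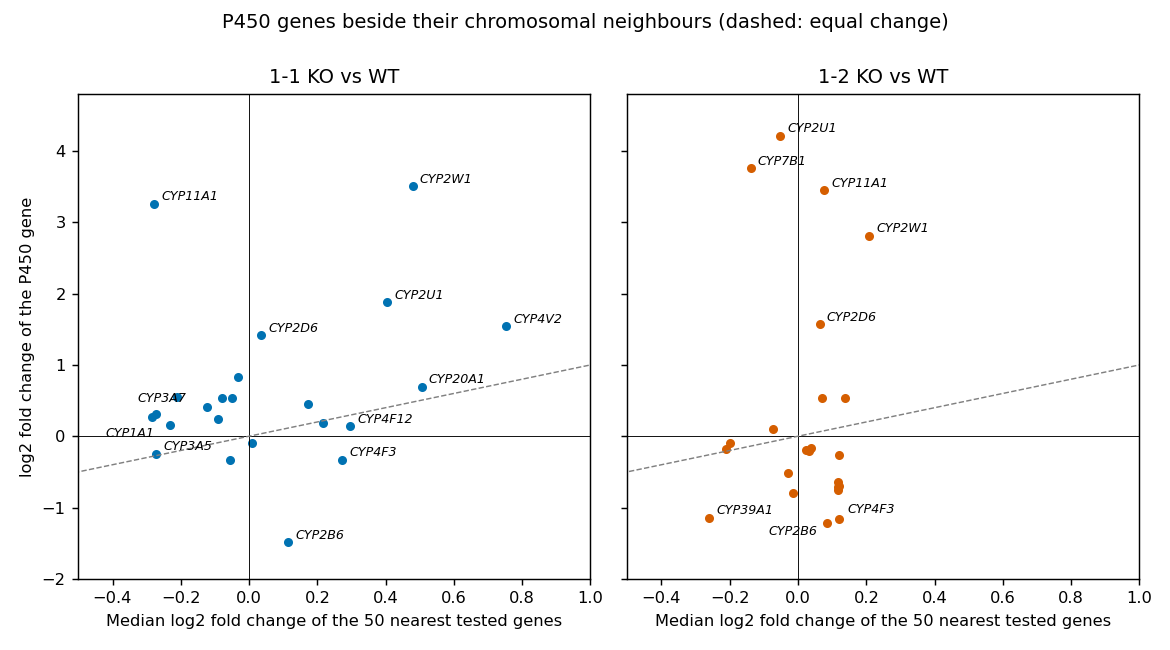
Log2 fold change of each tested P450 gene (vertical axis) against the median log2 fold change of its 50 nearest tested genes on the same chromosome (horizontal axis) in 1-1 KO (left) and 1-2 KO (right) versus WT; the dashed line marks equal change. CYP4V2 and CYP20A1 had the highest neighbour medians in 1-1 KO (0.75 and 0.51), and CYP7B1 and CYP2U1 lay far above their neighbours in 1-2 KO.

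P450s depend on redox partners and on heme. Over all tested genes, 32.5% were called higher and 30.9% lower in 1-1 KO, and 28.2% higher and 26.2% lower in 1-2 KO. Of 8 redox partner genes, all tested, 3 were higher and 2 lower in 1-1 KO and 2 were higher and 4 lower in 1-2 KO. The higher calls in 1-2 KO include FDX2, which had 0 WT libraries at the filter's cutoff of 0.247 CPM. A difference was thus built into the entry of FDX2. FDXR, the reductase that feeds electrons to mitochondrial P450s, was higher in both (1.05, SE 0.11, adjusted p = 1.3e-06, and 0.76, SE 0.11, adjusted p = 4.88e-05), and its partner FDX1 was lower in 1-1 KO (-0.48, adjusted p = 0.000643). CYB5B, the cytochrome b5 of the outer mitochondrial membrane, was higher in 1-1 KO (0.51) and lower in 1-2 KO (-0.22). Of 8 heme synthesis genes, 1 was higher and 5 lower in 1-1 KO and 2 were higher and 4 lower in 1-2 KO. ALAS1, the rate-limiting step of liver heme synthesis, was lower in 1-1 KO (-0.66, SE 0.04, adjusted p = 1.03e-08) and stood at 0.04 in 1-2 KO (adjusted p = 0.497). UROD, a later step, was lower in 1-2 KO (-0.70, SE 0.05, adjusted p = 4.15e-08). Their medians were 0.11 and -0.09 for redox partners and -0.28 and -0.10 for heme synthesis.

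Of 19 regulators of P450 genes, 18 were tested, with 9 higher and 5 lower in 1-1 KO and 10 higher and 6 lower in 1-2 KO. Of all tested genes, 63.4% were called in 1-1 KO and 54.4% in 1-2 KO. AHR, the receptor upstream of CYP1A1 and CYP1B1, was higher in 1-1 KO (0.60, SE 0.05, adjusted p = 1.81e-07) and stood at 0.00 in 1-2 KO (adjusted p = 0.996), and its partner ARNT was lower in both (-0.79 and -0.25). NR1H4, the bile acid receptor FXR, was lower in both (-0.57, SE 0.04, adjusted p = 6.28e-08, and -1.54, SE 0.05, adjusted p = 4.03e-12). VDR, the vitamin D receptor that acts on CYP24A1, was higher in both (1.56, SE 0.15, adjusted p = 4.56e-07, and 2.15, SE 0.14, adjusted p = 1.46e-08). NR5A2 and ONECUT1, liver factors known for acting on CYP7A1, were higher in 1-1 KO (0.22 and 0.43) and in 1-2 KO (0.56 and 0.83), and CYP7A1 was at the floor in all 3 lines. NR1I2 and NR1I3, named above for CYP2B6, stood at -0.12 (adjusted p = 0.568) and 0.00 (adjusted p = 0.979) in 1-1 KO. In 1-2 KO they stood at -1.66 (adjusted p = 1.26e-05) and -0.44 (adjusted p = 0.0178). No test linked a regulator to a P450 gene.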

How the data were processed

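RNA from the 3 lines was extracted with a column kit, and poly(A) libraries were made with the TruSeq stranded mRNA kit and sequenced as paired ends. For total RNA the paper describes TRI Reagent with phase separation, and its sequencing section names no extraction method. The authors aligned reads with STAR to hg38 with annotation version 104 and deposited raw read counts per gene from featureCounts; the strand setting and the treatment of multiply mapping reads are not given in the sources used here. Samples were grouped by genotype label.

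Counts were tested with edgeR 4.0.16 in R 4.3.3: filterByExpr (minimum count 10, minimum total 15), TMM scaling, all 9 libraries in 1 fit with a term per line, the quasi-likelihood test and Benjamini-Hochberg adjustment over the 17207 genes left. The fit was tested on simulated counts with known changes. DESeq2 1.42.0, which the study used, was an alternative, as were other scalings, filters and thresholds, 2-line fits, subtraction of the neighbours' median, a replicate block and leaving out each library. CPM used TMM library sizes. TPM used the union exon length of GENCODE 44 (GRCh38), which lacked 201 of 60664 identifiers holding 0.0192% of counts.

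Counting intervals are exact binomial intervals at 95%; intervals and floors cover counting error only. Promoter windows came from RefSeq, GRCh38.p14. All members are named, with per-library values for those called. Of the other lists, up to 4 genes with the smallest adjusted p per knockout may be named. NR1I2 and NR1I3 are given besides, because the text names them with CYP2B6. FDX2 is named for its entry to the test. The members and lists were chosen with earlier results of these data known. The untested genes whose values are given were named for completeness.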

Additional observations from a re-analysis of the deposited data

Results flagged for a closer look

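For 7 P450 genes the change against WT differed between the knockouts, higher in 1-1 KO and lower in 1-2 KO, with edgeR's quasi-likelihood test calling each of the 3 comparisons. The log2 fold change of 1-2 KO against 1-1 KO was -0.53 for CYP1A1, -1.22 for CYP1B1, -0.89 for CYP20A1, -0.45 for CYP26B1, -0.33 for CYP27A1, -1.48 for CYP27B1 and -1.68 for CYP39A1. The same pattern was found in 1038 of all 17207 tested genes (6.03%), and the opposite order, lower in 1-1 KO and higher in 1-2 KO, in 0 of the 23 tested P450 genes and 974 of all genes (5.66%). Calls against WT were lost in some alternatives for CYP1B1 in 1-1 KO, for CYP27A1 in both knockouts and for CYP27B1 in 1-2 KO, with the values given above. Both comparisons share the WT libraries, and each knockout is 1 line.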

How the results depend on the processing

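Of the fold changes of single P450 genes over all alternatives, 936 kept their direction and side of the threshold, 65 lost the call, 4 gained it and 10 changed sign. In 1-1 KO against WT, calls fell from 19 to 12 under DESeq2 with only the lines compared and to 6 at a log2 fold change over 1; higher calls fell from 15 to 5 at that fold; lower calls fell from 4 to 2 at an adjusted p under 0.01, under both DESeq2 fits, with library size alone and after subtracting the neighbours' median, and to 1 at that fold. Over all genes the calls in 1-1 KO went from 10915 to 9852 under that DESeq2 fit and to 2300 at that fold. In 1-2 KO against WT, calls fell from 18 to 8 and lower calls from 12 to 3 at a log2 fold change over 1, and higher calls from 6 to 2 at a minimum of 10 counts in every library. Over all genes they fell from 9355 to 2010 at that fold. Between the knockouts, higher calls went from 2 to 4 under both DESeq2 fits and with no filter, and to 1 at a minimum of 10 counts; lower calls fell from 15 to 5 and all calls from 17 to 7 at that fold, and those over all genes from 11229 to 2434. Genes at the floor in all lines numbered 2 at a floor of 0 counts and 15 at 10 counts, and 10 genes reached 2 TPM in 1-2 KO.

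Leaving out 1 library gave 13 to 17 calls in 1-1 KO (11 to 14 higher, 2 to 3 lower), 17 to 19 in 1-2 KO (5 to 7 higher, 11 to 12 lower) and 17 to 19 between the knockouts (2 to 4 higher, 14 to 15 lower), with 7 to 8 genes at the floor and 15 to 16, 16 and 17 genes at 1 TPM. With the replicate block, calls numbered 17 in each comparison, and CYP27A1 lost both calls against WT (adjusted p = 0.0588 and 0.0515) and CYP3A5 that in 1-1 KO (0.053). Same-numbered libraries of different lines deviated together with correlations of -0.353 to 0.182, and differently numbered ones with -0.339 to 0.459. The numbers were therefore not taken as pairs.

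After subtracting the neighbours' median, CYP3A5 stood at 0.0264, CYP4F12 at -0.155 and CYP2S1 at -0.0286 in 1-1 KO, CYP2J2 at 0.10 and CYP2C18 at 0.0314 in 1-2 KO, and CYP11A1 at -0.16 between the knockouts. Without 1-1 KO replicate 1, CYP2S1 stood at -0.0501 in 1-1 KO (highest leave-one-out value 0.352) and CYP2D6 at -0.19 between the knockouts; without 1-2 KO replicate 3, CYP11A1 stood at -0.0450 (highest 0.332) and CYP2D6 at -0.347 (highest 0.525). With no filter on low counts, edgeR also called CYP2E1 lower in 1-1 KO (-3.07, adjusted p = 0.00178), CYP17A1 lower in 1-2 KO (-4.43, adjusted p = 0.0156) and CYP24A1 higher in 1-2 KO (3.04, adjusted p = 1.87e-05). The cause of these shifts was not tested. Depth limits the genes under about 10 counts per library.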

Other observations

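Of 18 further human P450 genes, 8 were at the floor in all lines and 6 were tested, with 2 higher and 1 lower in 1-1 KO and 3 higher and 0 lower in 1-2 KO. The share of all tested genes called was 63.4% in 1-1 KO and 54.4% in 1-2 KO. CYP51A1, the lanosterol demethylase of cholesterol synthesis, was higher in both (log2 fold change 0.30, SE 0.07, adjusted p = 0.00174, and 0.32, SE 0.07, adjusted p = 0.00132, edgeR's quasi-likelihood test). PTGIS, the prostacyclin synthase, was higher in both (1.04, adjusted p = 0.0298, and 1.13, adjusted p = 0.0225). TBXAS1, the thromboxane synthase, was lower in 1-1 KO (-1.97, SE 0.34, adjusted p = 0.000155). CYP27C1, a retinoid desaturase, was higher in 1-2 KO (1.40, adjusted p = 0.028). PTGIS and CYP27C1 had 0 WT libraries at the filter's cutoff of 0.247 CPM and entered the test through the knockout lines, so a difference was built into their entry.

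Of 4 other known targets of AHR, 3 were tested, with 1 higher and 0 lower in 1-1 KO and 0 higher and 2 lower in 1-2 KO. Calls over all tested genes were 32.5% higher and 30.9% lower in 1-1 KO, and 28.2% higher and 26.2% lower in 1-2 KO. TIPARP was higher in 1-1 KO (0.29, SE 0.04, adjusted p = 3.66e-05). NQO1, a quinone reductase that also answers to oxidative stress, was lower in 1-2 KO (-0.85, SE 0.04, adjusted p = 4.24e-10) and stood at 0.02 in 1-1 KO. ALDH3A1 was lower in 1-2 KO (-0.45, SE 0.14, adjusted p = 0.0134).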
